A study of Mus musculus with 2 samples.

Results

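Isl1 binding was described at 7 homeobox genes of the heart fields, the sinus node and the outflow tract: Nkx2-5, Nkx2-6, Pitx1, Msx1, Msx2, Shox2 and Hopx. The genes were chosen by name, and a peak was counted as theirs when the deposited Isl1 peak list gave it their symbol. Of the 48295 peaks of the list, 26 carried one of these symbols, and they belonged to 6 of the 7 genes. The list named 12972 genes in all. The peaks came from chromatin immunoprecipitation followed by sequencing (ChIP-Seq) of E8.25-E9 C57BL/6 mouse embryos. Heart region and cardiogenic mesoderm of about 60 to 80 embryos were pooled and precipitated with an anti-Isl1 antibody, clone 39.4D5. Input chromatin of the same stage, strain and tissue was taken without antibody, and its signal was not analysed here. Positions are in mm9. No knockout or treated embryos belong to this comparison, and the pool mixes the cell types of the dissected region.

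Isl1 is a LIM-homeodomain transcription factor of progenitor cells of the second heart field, which lengthen the heart tube at both of its ends. Nkx2-5 and its relative Nkx2-6 are homeodomain factors of the heart and pharyngeal region. Pitx1 is a paired-type homeodomain factor best known from the hindlimb and the pituitary, and Msx1 and Msx2 are Bmp-responsive homeodomain factors of the endocardial cushions and the neural crest. Shox2 is a homeodomain factor of the sinus venosus and sinus node, where it restrains Nkx2-5. Hopx has a homeodomain that does not bind DNA and acts through partner proteins such as Srf. Homeodomains in general contact DNA at sites with a TAAT core.

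The sequence at the centre of the peaks is shown first, because all 26 peaks shared long runs of purines or of pyrimidines there. Such a run, of 25 or more in a row, was also at the centre of 94.1% of all peaks. It is therefore not particular to these genes. The 200 bases around the midpoint of the peak closest to the TSS (transcription start site) are given for Nkx2-5, Msx1, Shox2 and Hopx. Sequences are the plus strand of the reference genome, 5′ to 3′, and capitals mark the longest uninterrupted run of purines (A and G) or pyrimidines (C and T).
Nkx2-5, chr17:26989919-26990118: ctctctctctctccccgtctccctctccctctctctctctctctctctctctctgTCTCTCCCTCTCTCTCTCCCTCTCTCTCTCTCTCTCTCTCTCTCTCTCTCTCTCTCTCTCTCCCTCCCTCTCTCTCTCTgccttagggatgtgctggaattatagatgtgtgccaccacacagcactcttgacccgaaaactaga
Msx1, chr5:38226741-38226940: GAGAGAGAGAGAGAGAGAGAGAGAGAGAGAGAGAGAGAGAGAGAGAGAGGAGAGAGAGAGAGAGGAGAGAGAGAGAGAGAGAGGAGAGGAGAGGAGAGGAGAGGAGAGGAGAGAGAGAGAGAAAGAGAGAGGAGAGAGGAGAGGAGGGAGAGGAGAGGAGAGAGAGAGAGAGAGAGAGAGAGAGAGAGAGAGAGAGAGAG
Shox2, chr3:66785955-66786154: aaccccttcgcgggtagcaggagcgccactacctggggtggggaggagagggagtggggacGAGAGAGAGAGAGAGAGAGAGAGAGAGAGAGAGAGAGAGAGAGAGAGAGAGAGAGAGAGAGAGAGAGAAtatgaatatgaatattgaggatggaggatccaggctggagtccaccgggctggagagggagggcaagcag
Hopx, chr5:77520158-77520357: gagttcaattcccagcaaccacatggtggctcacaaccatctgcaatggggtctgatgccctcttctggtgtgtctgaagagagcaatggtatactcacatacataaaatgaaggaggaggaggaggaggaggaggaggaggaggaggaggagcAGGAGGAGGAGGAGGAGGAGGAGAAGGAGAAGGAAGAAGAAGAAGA
The capitals covered all 200 bases at Msx1, 79 at Nkx2-5, 69 at Shox2 and 46 at Hopx. The runs differed in makeup. The Nkx2-5, Msx1 and Shox2 runs consisted mostly of CT or GA dinucleotides, whereas the Hopx run was built of AGG and AGA triplets.

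At least 1 Isl1 peak was assigned to 6 of the 7 genes, beside 45.5% of all protein-coding genes. In the naming of the list, the same 6 genes each had 3 or more peaks, beside 17.8% of all protein-coding genes. With each peak given to the closest coding TSS of the GENCODE annotation instead, 4 of the 7 had 3 or more (Nkx2-5, Msx1, Msx2 and Shox2), beside 22.3%, and Pitx1 had 2 and Hopx 1. Shox2 had 7 peaks, Msx2 had 5, Nkx2-5 and Msx1 had 4 each, Pitx1 and Hopx had 3 each, and Nkx2-6 had 0. The median protein-coding gene with a peak had 2. Shox2 and Hopx, 2 of the 7 genes, had an assigned peak no farther than 10 kb from the TSS, beside 22.6% of all protein-coding genes. The list holds 1 set of peaks without replicates, heights or p-values, so these counts have no replicate check and the depth behind them is unknown.

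**Figure D1:**
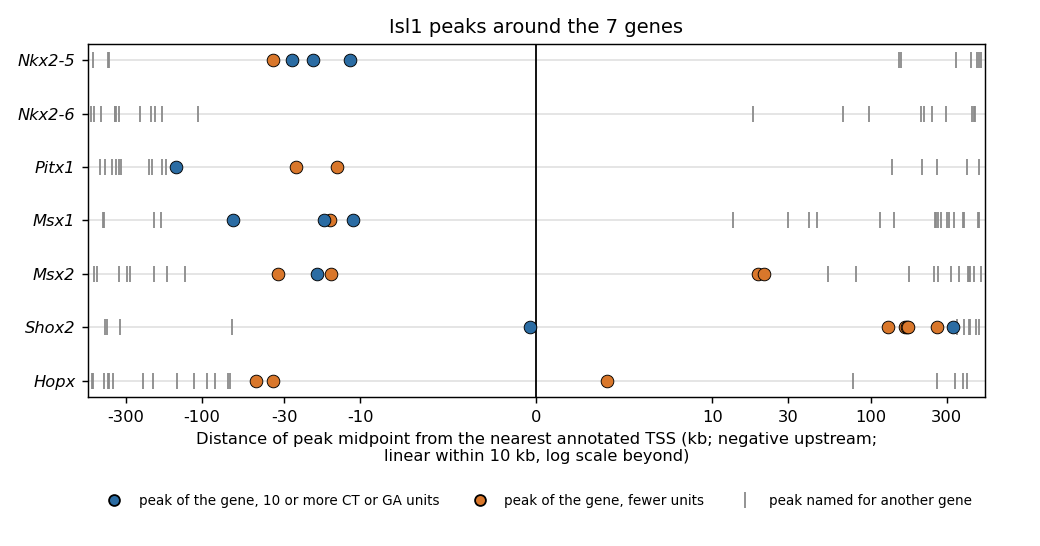
Isl1 peaks around each of the 7 genes, by signed distance in kb of the peak midpoint from the nearest annotated TSS (linear within 10 kb, logarithmic beyond; negative is upstream). Filled circles are the 26 peaks assigned to the gene, blue with 10 or more CT or GA units at the centre and orange with fewer. Grey ticks are peaks named for another gene. All peaks assigned to Nkx2-5, Pitx1 and Msx1 lay upstream, and 6 of the 7 Shox2 peaks lay far downstream. Peaks named for Msx1os lay downstream of Msx1.

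Nkx2-5, the core homeodomain factor of the early heart, had 4 peaks, and all lay in intergenic sequence upstream of its single TSS on chromosome 17. They were found at 11.5 kb (26989734 to 26990305), 19.8 kb (26997921 to 26998672), 26.8 kb (27005126 to 27005576) and 35.3 kb (27013638 to 27014030) from the TSS. Neighbouring peaks were 7.06 to 8.48 kb apart, and the 4 midpoints spanned 23.8 kb. Their widths were 571, 751, 450 and 392 bp in the same order. No further peak lay within 100 kb of Nkx2-5, and the next ones were 150.9 and 155.4 kb away on the other side, in introns of Atp6v0e. The nearest annotated TSSs of other coding genes were those of Bnip1, 60.4 kb away, and Kifc5b, 75.5 kb away. Over the stretch of sequence for which the Nkx2-5 TSS is the closest coding one, 68.0 kb long, Nkx2-5 had 5.89 peaks per 100 kb, the highest value of the 7 genes. Msx2 had 5.39, Msx1 4.62, Shox2 2.02, Hopx 1.90, Pitx1 1.31 and Nkx2-6 0. All peaks over all such stretches gave 1.88. In fixed windows, 46.3% of protein-coding genes had as many peaks as Nkx2-5 or more within 100 kb, and 75.7% within 500 kb. The 3 peaks closest to the TSS had pyrimidine runs of 79, 117 and 97 bp with 21, 34 and 19 CT or GA units, and the farthest had a purine run of 175 bp with 6 units. TAAT, read on either strand, occurred 4 times in the closest peak, 1 time in the next and not in the other 2.

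Nkx2-6 had no peak by the closest TSS. The nearest peak, 317 bp wide, lay 18.0 kb downstream of an Nkx2-6 TSS and was assigned to another gene. The next peaks, at 66.9 and 97.3 kb on the same side, were named for Slc25a37, and the first peak upstream was 106.0 kb away and named for Stc1. The stretch for which an Nkx2-6 TSS is the closest coding one was 16.1 kb long, longer than in 16.5% of protein-coding genes, and it held 0 peaks. The nearest peak was farther away in 52.4% of protein-coding genes, with a median distance of 19.4 kb, so Nkx2-6 lacked an assigned peak but not a nearby one.

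Pitx1 had 3 peaks on chromosome 13, all intergenic and upstream. By the distances in the list they were 18.7 kb (55951272 to 55951673), 30.3 kb (55962803 to 55963301) and 150.3 kb (56082840 to 56083288) from the TSS. A second annotated Pitx1 TSS lies farther upstream, and the 2 nearer peaks were 13.9 and 25.5 kb from it. Their widths were 401, 498 and 448 bp, all between the quartiles over all peaks. The 2 nearer peaks had pyrimidine runs of 141 and 200 bp with only 2 and 3 CT or GA units, and the distant one had a purine run of 71 bp with 31 units. The distant peak was assigned to Gm17253 when the closest coding TSS of the GENCODE annotation was used.

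Msx1 had 4 peaks on chromosome 5, all intergenic and upstream. They lay at 11.02 kb (38226601 to 38227081), 15.5 kb (38231023 to 38231544), 16.9 kb (38232547 to 38232864) and 63.4 kb (38279019 to 38279351), and the first 3 fell within 6 kb of each other. Their widths were 480, 521, 317 and 332 bp. Another 4 peaks on the downstream side, at 13.5, 30.1, 40.9 and 45.8 kb from the Msx1 TSS, were named for Msx1os, the opposite-strand transcript beside the gene. One of these, from 38169450 to 38170582, was 1132 bp wide, wider than any peak of the 7 genes. Msx1 and Msx1os had 8 peaks together, and by the closest coding TSS Msx1 had 7, of which 4 were upstream. The one-sided layout of Msx1 therefore held only for the naming in the deposited list. The runs at the 4 Msx1 peaks were 200, 140, 33 and 57 bp, and 3 of the 4 had 16 or more CT or GA units.

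Msx2 had 5 peaks that flanked the gene on both sides, all within 50 kb of the TSS. On chromosome 13, its 3 upstream peaks were at 15.6 kb (53583576 to 53583948), 18.9 kb (53586865 to 53587300) and 33.5 kb (53601428 to 53601850). Its 2 downstream peaks were at 18.96 kb (53548999 to 53549375) and 20.8 kb (53547160 to 53547582). All 5 were intergenic and of similar width, 372 to 435 bp, below the median of all peaks. The 2 downstream peaks were 1.82 kb apart and the 2 nearest upstream peaks 3.32 kb apart. The runs at the 5 centres were 136, 68, 127, 160 and 199 bp in the order given, and only the 68 bp run was a CT or GA repeat, with 28 units. All 5 peaks held TAAT at least once. By the closest coding TSS the farthest upstream peak went to Gm5449 and Msx2 had 4.

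Shox2 had the most peaks and the widest spread. Its closest peak, on chromosome 3 from 66785882 to 66786228, had its midpoint 0.362 kb upstream of the TSS and its edge 0.189 kb from it. The nearest peak was farther away in 96.8% of protein-coding genes. This peak also lay in an intron of Rsrc1, a gene on the opposite strand that overlaps the 5′ end of Shox2, and it held 34 GA units. The other 6 peaks lay downstream in intergenic sequence, at 127.5, 163.6, 169.3, 171.3, 260.3 and 331.2 kb. A group of 3 lay from 66618789 to 66619427, from 66613072 to 66613717 and from 66611095 to 66611703, with neighbouring midpoints 5.71 and 1.995 kb apart and widths of 638, 645 and 608 bp. The remaining downstream peaks were 373 bp (66655013 to 66655386), 661 bp (66522133 to 66522794) and 331 bp wide (66451369 to 66451700). No other coding TSS lies on this side before Veph1, 681.6 kb away, so the stretch closest to Shox2 was 345.9 kb long, longer than in 92.7% of protein-coding genes. Per 100 kb of that stretch Shox2 had 2.02 peaks, beside 1.88 over all genes, although its count of 7 was reached by 6.09% of protein-coding genes.

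TAAT matches were gathered in a few peaks, 3 of them downstream of Shox2 and 638, 645 and 661 bp wide. The median width of the 26 peaks was 449 bp, and matches were not adjusted for width. The mean over all peaks of the list was 2.66 matches. The peak at 163.6 kb held 10 matches and the peaks at 169.3 and 260.3 kb held 6 each, and the other 4 Shox2 peaks held 1 or 0. The 200 bases with the most matches in the first of these are printed because none of the central sequences printed above shows the motif in number. Capitals mark the matches on either strand, TAAT or ATTA, and the stretch was chosen after its values were seen.
Shox2, chr3:66619223-66619422: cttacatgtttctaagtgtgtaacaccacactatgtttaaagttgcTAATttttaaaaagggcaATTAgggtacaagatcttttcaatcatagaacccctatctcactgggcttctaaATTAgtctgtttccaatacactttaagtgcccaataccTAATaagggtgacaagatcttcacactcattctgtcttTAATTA
The stretch holds 6 matches, counting overlapping ones, and no purine or pyrimidine run longer than 8 bases. It lies on one side of a pyrimidine run of 93 bp in the same peak, whose own 200 bases at the centre held no TAAT. Peaks within 500 kb of Shox2 that were named for other genes held 0 to 8 matches.

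Hopx had 3 peaks on chromosome 5. One lay 4.03 kb downstream of a Hopx TSS, from 77520027 to 77520489, within an intron of Hopx and 462 bp wide. The other 2 were intergenic, 35.5 kb (77579312 to 77579940) and 45.7 kb (77589431 to 77590182) upstream of the most distal Hopx TSS, and were 628 and 751 bp wide. Their centre runs were 46 bp for the intronic peak, where the run extended to 141 bp outside the central window, and 122 and 190 bp for the upstream peaks. None of the 3 had more than 3 CT or GA units, and all held TAAT, with 2, 4 and 7 matches. By the closest coding TSS both upstream peaks were assigned to Gm15831, a gene model whose TSS is 7.19 kb from that of Hopx, and Hopx then had 1 peak.

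**Figure D2:**
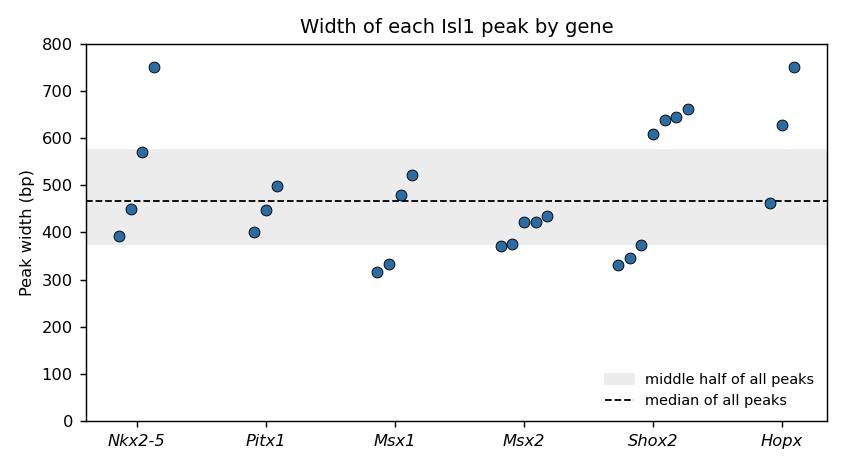
Width in bp of each Isl1 peak by gene, with a point per peak. The grey band runs from the lower to the upper quartile of all 48295 peaks (375 to 576 bp) and the dashed line their median (466 bp); the 5 Msx2 peaks lie below the line, and the 7 Shox2 peaks fall into a narrow and a wide group.

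As a set, the 26 peaks had a median width of 449 bp (range 317 to 751 bp), beside 466 bp for all peaks (range 175 to 3426 bp), and 11 of the 26 were wider than that median. The Shox2 widths fell into 3 peaks of 331 to 373 bp and 4 of 608 to 661 bp. The median distance to the TSS was 28.6 kb (range 0.362 to 331.2 kb), beside 58.8 kb for all peaks. Within 50 kb lay 18 of the 26 peaks (69.2%, 95% exact binomial interval 48.2 to 85.7%), beside 46.2% of all peaks. Within 10 kb lay 2 of the 26 (7.69%, exact interval 0.946 to 25.1%), beside 15.9% of all peaks. Thus 16 of the 26 peaks fell between 10 and 50 kb, and the 7 past 100 kb were 6 peaks of Shox2 and 1 of Pitx1. Intervals cover counting error only, and peaks of the same gene are not independent of each other.

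Upstream of the TSS were 17 of the 26 peaks (65.4%, 95% exact binomial interval 44.3 to 82.8%), beside 47.5% of all peaks. In the naming of the list, Nkx2-5, Pitx1 and Msx1 contributed 11 of these 17 and had no peak downstream. For Msx1 this did not hold by the closest coding TSS, where 4 of its 7 peaks were upstream. With the closest coding TSS instead, 13 of 25 peaks (52.0%) were upstream. In genomic place, 24 of the 26 midpoints were intergenic and 2 intronic, those of the Hopx peak and of the Shox2 peak inside Rsrc1, and none of the 26 peaks overlapped an exon. The distance from a peak to the next peak of the list had a median of 8.38 kb, beside 16.8 kb for all peaks.

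The number of peaks around each gene was also counted without regard to the name given to the peak. All 7 genes had a peak midpoint within 100 kb of a TSS, beside 95% of protein-coding genes, so this count does not set them apart. Msx1 and Hopx each had 8 peaks in this window and Msx2 had 7, numbers reached by 7.05% and 11.9% of protein-coding genes. Nkx2-5 had 4, Nkx2-6 had 3, and Pitx1 and Shox2 had 2 each, around the median of 3 over all genes. Within 500 kb the order changed: Msx1 and Msx2 had 25 peaks each, Nkx2-6 and Hopx 22, Pitx1 18, Shox2 17 and Nkx2-5 14, beside a median of 18. Nkx2-5 and Nkx2-6, with 4 and 3 peaks within 100 kb and 6 each within 200 kb, differed mainly in the wider window, with 14 and 22. Of the 34 peaks within 100 kb of the 7 genes, 19 were named for the gene itself and 15 for another gene. The 5 such peaks at Hopx were named for Spink2 (4 peaks) and 1700112J05Rik (1 peak), and those at Msx2 for Gm2762 (2 peaks). By the closest coding TSS, 6 of the 7 genes had a peak, as with the names in the list, beside 54.8% of protein-coding genes.

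**Figure D3:**
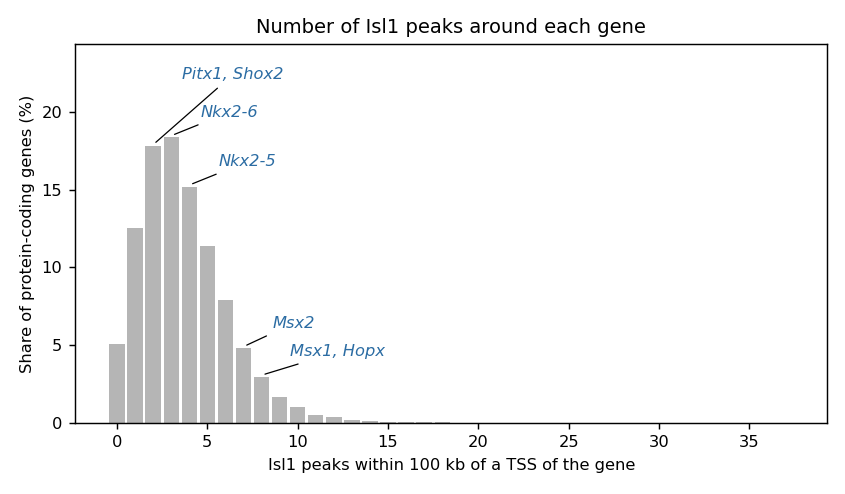
Number of Isl1 peaks within 100 kb of a TSS (horizontal axis) and share of the 22219 protein-coding genes with that number in percent (vertical axis). Lines mark the 7 genes: Pitx1 and Shox2 at 2, Nkx2-6 at 3 and Nkx2-5 at 4 sit in the bulk of the distribution, and Msx2 at 7 and Msx1 and Hopx at 8 lie in its upper tail.

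All 26 peaks held 25 or more purines, or 25 or more pyrimidines, in a row within 100 bp of the midpoint (100%, 95% exact binomial interval 86.8 to 100%), beside 94.1% of all peaks. In windows of the same size 1 kb to either side, 1 of 52 held such a run (1.92%), beside 3.95% for all peaks. The exception was a 38 bp run beside the Msx2 peak at 18.9 kb. The centre runs ranged from 33 to 200 bp with a median of 119.5 bp, and those of all peaks had a median of 92 bp. The runs in the side windows had a median of 10 bp. With a run of at least 40 bp 25 peaks remained, and the peak lost was the Msx1 peak at 16.9 kb. Purines made up the run in 11 of the 26 peaks and pyrimidines in 15, on the plus strand. Because this feature is nearly universal in the list, it does not distinguish the 7 genes.

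The runs were of more than one kind. In 10 of the 26 peaks (38.5%, 95% exact binomial interval 20.2 to 59.4%) the centre held 16 to 34 consecutive CT or GA units, and in the other 16 it held at most 6. The share with 10 or more units over all peaks was 45.0%. Runs were longer in the peaks with few units, with a median of 140.5 bp, than in the dinucleotide repeats, with a median of 70.0 bp. The same order was seen over all peaks, with 109 and 78 bp. By their centres, Nkx2-5 and Msx1 each had 3 repeat peaks of 4, Shox2 had 2 of 7, Pitx1 1 of 3, Msx2 1 of 5 and Hopx 0 of 3. Over the whole peak, the Shox2 peaks at 169.3 and 171.3 kb held 18 and 20 units, beside 2 and 5 at the centre. Whether reads map to such repeats as well as to other sequence, and whether input chromatin was enriched there, was not tested.

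**Figure D4:**
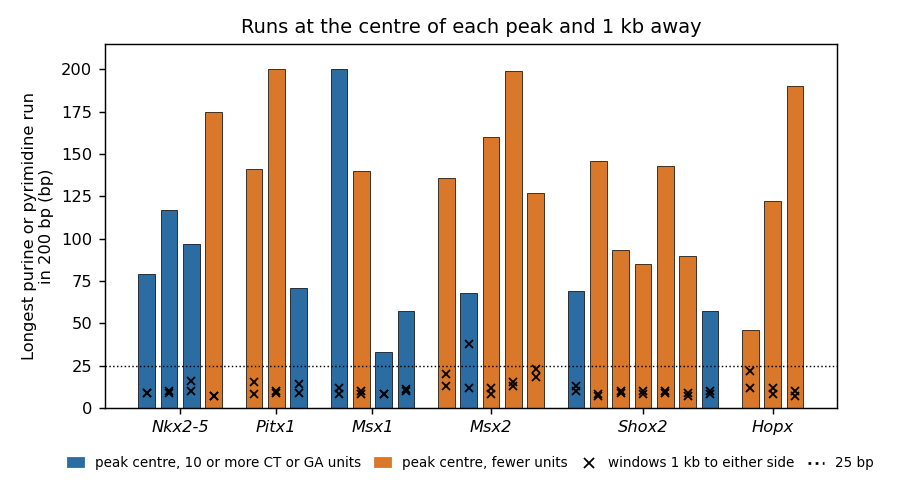
Longest purine or pyrimidine run in bp within 200 bp of sequence at the centre of each of the 26 peaks (bars, ordered within each gene by distance to the TSS) and in the windows 1 kb to either side (crosses). Bars are blue with 10 or more CT or GA units and orange with fewer, and the dotted line is 25 bp; every bar stands above the line, and 1 cross, beside an Msx2 peak, does.

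Long runs were also counted independently of the peaks, to see how many of those near the 7 genes lay under a peak. The windows of 100 kb around the genes held 133 runs of at least 50 bp, of which 38 were under a peak (28.6%, 95% exact binomial interval 21.1 to 37.0%). Over the genome 30.4% of 176892 such runs were under a peak. By gene, 5 of 21 were under a peak at Nkx2-5, 3 of 18 at Nkx2-6, 3 of 10 at Pitx1, 9 of 23 at Msx1, 8 of 26 at Msx2, 3 of 13 at Shox2 and 7 of 22 at Hopx. The median number of long runs around a protein-coding gene was 14, and Msx2, Msx1, Hopx and Nkx2-5, which had 4 to 8 peaks in the window, each had 21 or more. Pitx1 and Shox2, with 2 peaks each, had 10 and 13. Nkx2-6, with 3 peaks, had 18. Genes with more peaks thus tended to have more long runs, but the run counts include the runs under those peaks. The part of long runs in the peak counts was not tested.

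Short motifs of homeodomain factors were read in the same sequences. TAAT, or ATTA on the other strand, is the homeodomain core, and AAGTG, or CACTT, is part of the site known for Nkx2-5. In the 200 bases at the centre, TAAT was found in 6 of the 26 peaks (23.1%, 95% exact binomial interval 8.97 to 43.6%), beside 35.3% of all peaks. In the windows 1 kb to either side it was found in 63.5% of the 52 windows, beside 73.4% for all peaks, so the lower share at the centre was a feature of the whole list. TAAT and AAGTG both mix purines and pyrimidines, so neither can lie inside an uninterrupted run. The runs had a median of 119.5 bp at the 26 centres and 10 bp in the side windows. Centre and side shares of either motif were not adjusted for this. Over the whole width, 20 of the 26 peaks held TAAT (76.9%, exact interval 56.4 to 91.0%), beside 82.8% of all peaks, with 56 matches in total or 2.15 per peak, beside 2.66. AAGTG was found in 4 of the 26 centres (15.4%), beside 16.8% of all peaks, in 44.2% of the side windows, beside 39.1%, and in 15 of the 26 over the whole width (57.7%), beside 53.2%. Neither motif occurred in 3 peaks: the farthest Nkx2-5 peak, the farthest Msx1 peak and the Shox2 peak at 127.5 kb. A match is only a string of letters and may or may not be bound.

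Relatives of the 7 genes were counted in the same way. Of 8 paralogs (Nkx2-1, Nkx2-2, Nkx2-3, Nkx2-4, Nkx2-9, Nkx3-2, Pitx3 and Msx3), 6 had a peak, 1 had 3 or more, and 5 had one within 10 kb. The shares of all protein-coding genes were 45.5%, 17.8% and 22.6% in the same order. Nkx2-3 had 4 peaks, Nkx2-4 and Nkx2-9 had 2 each, and Nkx2-1, Nkx3-2 and Pitx3 had 1 each. By the closest coding TSS Nkx2-1 had 4, and the counts of Nkx2-3, Nkx2-4, Nkx2-9, Nkx3-2 and Pitx3 were as in the list. Msx3 and Nkx2-2 had 0, but for Nkx2-2 the naming decided this. By the closest coding TSS Nkx2-2 had 9 peaks, 5 of which the list named for Nkx2-2os and 4 for 6430503K07Rik.

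Of 17 partner genes of heart fields, outflow tract and sinus node, 13 had a peak and 9 had 3 or more in the naming of the list, and 12 and 9 by the closest coding TSS. The shares of all protein-coding genes were 45.5% and 17.8% in the naming of the list, and 54.8% and 22.3% by the closest coding TSS. For many of the partners the number of peaks depended on this choice, so both values are given, the list first. Isl1 itself had 33 and 16 peaks. Among the T-box genes, Tbx18, which acts in the sinus horns beside Shox2, had 11 by both, Tbx5 had 10 by both, and Tbx20 had 3 and 2. Tbx3, the T-box repressor of the conduction system, had 1 peak in the list, 11.3 kb upstream, but 22 by the closest coding TSS. Hand2 had 1 and 19, and Hand1 had 3 and 0. Mef2c had 8 and 28, and Gata6 had 8 and 14. Among the Bmp ligands, Bmp2 had 6 and 18, Bmp4 had 3 and 6, and Bmp10 had 2 by both. Gja5, a connexin gene, had 2 by both. Hcn4, the pacemaker channel gene, Nppa, a target of Nkx2-5, and Srf, the partner of Hopx, had 0 by both, as did Gata4. In the naming of the list, a peak within 10 kb was present for 6 of the 17, beside 2 of the 7 genes described here. The share of all protein-coding genes was 22.6%.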

How the data were processed

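Isl1 ChIP-Seq peaks were taken from 1 deposited list for 1 ChIP sample, and 1 input sample entered no comparison. Per the paper's methods and the submitters' processing notes, the authors aligned reads to the mm9 genome (bowtie2) and discarded duplicate reads (Picard 1.136), and MACS peaks outside blacklisted regions were named for the nearest TSS, coding or noncoding. The paper describes replicate ChIP-Seq and intersection of replicate peaks with bedtools, but not whether this list is such an intersection. The deposited columns used hold peak start and end and the signed distance to the TSS in bp. Signal, p-values and read counts were not used here.

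Peaks were joined to members by gene symbol. Sequence came from NCBIM37, the assembly of mm9: 0 peaks ran past a chromosome end and for 31189 of the 35604 peaks with a coding gene found in GENCODE vM1 (87.6%) the TSS used lay within 100 bp of an annotated one. Runs, CT or GA units and motifs were searched in 200 bp around midpoints. Shares have exact 95% binomial intervals (scipy 1.17.1, Python 3.11.15). Backgrounds are all 22219 protein-coding GENCODE genes and all peaks. The search was tested on simulated sequences. No test between groups was possible with 1 list. The members, lists and measures were chosen with earlier results of these data known. All members and partners and 8 paralogs are named (the other paralogs and some sequences are not reported here), as are genes that bound a member's stretch or that nearby peaks were assigned to. Spink2, Gm2762, 1700112J05Rik, Atp6v0e and Gm gene models were added after their values were seen.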

Additional observations from a re-analysis of the deposited data

How the results depend on the processing

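The results were recomputed under 26 alternatives, and 22 stayed within 1.5 times the count or median reported, or within the interval of the share. The 4 that moved were counts. With peaks within 10 kb of the TSS only, 2 of the 7 genes had a peak, 2 peaks were left of 26, and 13 of all the paralogs and partners had a peak in place of 21. With peaks wider than the median of all peaks, 11 peaks were left. Fewer peaks enter under these settings by construction. Some of the 22 could not move. A minimum run of 15, a run anywhere in the peak, or wider peaks only had to keep 100% of peaks with a run. A window of 200 kb, or any overlap with the window, had to keep all 7 genes with a peak nearby. With the closest coding TSS, 4 genes in place of 6 had 3 or more peaks (chosen after seeing the data), the 7 genes had 25 peaks, 52.0% were upstream and the median distance was 21.1 kb. The change from 6 to 4 genes lay exactly at the limit of 1.5 times and was counted as not moved. Changing the minimum run to 15 or 40 bases gave 100% and 96.2% of the 26 peaks.

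No paired analysis was possible because the data are 1 peak list. No replicate was there to leave out. In the absence of heights, p-values and depth, peaks were not ranked and no stricter threshold was set, and a gene without a peak cannot be told from one below the caller's threshold. Naming by closest TSS does not show which gene a peak acts on.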
